A study of Mus musculus with 8 samples.

Results

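MicroRNA genes were followed in purified mouse brain vessels through the transcript clusters, or probe sets, that an expression array places on them. A cluster was taken when the platform table gave it a single gene symbol starting with Mir, host genes ending in hg left out, and when its mean over all 8 arrays lay above a background floor of 4.68 on the log2 scale. To set the floor, 1405 clusters of olfactory and vomeronasal receptors, which brain vessels are not known to use, were ranked by mean level and the level at the 90th percentile was taken. Of 507 microRNA clusters 245 lay above the floor and 262 at or below it, among 41345 clusters on the array of which 27664 lay above it. The 245 clusters carried 234 distinct symbols, 9 of them held the same 8 values as another one of the set, and 1, Mirt1, is a long RNA that shares the prefix. Levels averaged over both groups chose the clusters, so that levels are given as a description. A cluster can pass such a floor through 1 group alone, and 24 members did so through the undigested group and 0 through the digested group, so that counts are also given for the 221 members with both group means above the floor. Mir496a (mean level 4.69), Mir30c-1 (4.69) and Mir200a (4.71) lay just inside the floor, and Mir218-2 (4.68, below it before rounding), Mir1839 (4.67) and Mir193b (4.67) just outside. A further 138 clusters carry a Mir symbol together with another gene and were not used, which leaves out miR-126a, the best known endothelial microRNA, since its cluster is shared with its host Egfl7. The study, with its own annotation, lists Mir126a among the transcripts depleted upon digestion.

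All vessels came from male C57Bl6 mice of 2 months. Basal lamina digested vessels (n = 4 arrays) were obtained, per the study's methods, by incubating the brain with DNAse I and Liberase in place of homogenizing it, whereas undigested vessels (n = 4 arrays) were prepared mechanically. The comparison asked which transcripts leave the vessel fraction when astrocyte endfeet, the tips of astrocyte processes that sheath the vessels, come off with the partly digested basal lamina. Each array was 1 preparation of vessels pooled from several mice, and a p-value here measures how such pools vary. Loss of endfeet and the warm enzymatic dissociation itself cannot be told apart in this design, and the labels call the vessels of both groups mechanically extracted.

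MicroRNAs are cut from long primary transcripts, often introns or long non-coding RNAs, in which they form a hairpin. The nuclear enzyme Drosha frees the hairpin, Dicer trims it in the cytoplasm, and one arm is loaded as the mature microRNA into an Argonaute protein, where its seed, the stretch near the 5′ end that pairs with target messenger RNAs, directs repression. In the neurovascular unit, microRNAs of the miR-23/27/24 family are linked to endothelial cells, miR-143 and miR-145 to smooth muscle, miR-29 to astrocytes, miR-219 to oligodendrocytes, and miR-124, miR-128 and miR-9 to neurons and their progenitors. The array was hybridized with labelled total RNA, and the values of a cluster do not say whether a primary transcript, a hairpin or a mature microRNA gave the signal.

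A mature sequence was found in the RefSeq tables (GRCm38.p6) for 204 of the 245 clusters, and 346 mature arms were used. The arms below belong to the members on which the results turn, written 5′ to 3′ with the seed (bases 2 to 8) in capitals. The first 6 are arms of lowered members of the imprinted Dlk1-Dio3 region on chromosome 12.
mmu-miR-300-3p: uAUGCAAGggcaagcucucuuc
mmu-miR-667-3p: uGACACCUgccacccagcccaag
mmu-miR-493-3p: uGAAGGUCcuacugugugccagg
mmu-miR-329-3p: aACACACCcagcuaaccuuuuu
mmu-miR-543-3p: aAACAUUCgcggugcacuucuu
mmu-miR-377-3p: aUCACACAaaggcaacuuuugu
These 6 arms share no seed with each other.

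The next arms belong to the miR-23 and miR-27 genes and to the let-7 family, shown because most of their members above the floor were lowered.
mmu-miR-23a-3p: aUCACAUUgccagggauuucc
mmu-miR-23b-5p: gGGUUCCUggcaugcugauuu
mmu-miR-27a-3p: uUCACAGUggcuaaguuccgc
mmu-let-7c-5p: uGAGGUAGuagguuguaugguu
mmu-let-7a-5p: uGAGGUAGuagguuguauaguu
mmu-let-7e-5p: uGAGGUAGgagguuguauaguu
mmu-let-7i-5p: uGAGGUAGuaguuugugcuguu
mmu-miR-3962: aGGUAGUAguuuguacauuu
The 4 let-7 arms have 1 seed, GAGGUAG, and let-7c-5p is made from both Mirlet7c-1 and Mirlet7c-2. miR-3962 has another seed but shares a run of 14 bases with let-7i-5p, the longest it shares with any arm of the set.

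The last arms are those of genes whose copies or relatives had different calls.
mmu-miR-128-3p: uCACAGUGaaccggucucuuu
mmu-miR-30c-5p: uGUAAACAuccuacacucucagc
mmu-miR-194-5p: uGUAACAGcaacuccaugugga
mmu-miR-181b-5p: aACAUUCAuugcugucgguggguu
mmu-miR-181d-5p: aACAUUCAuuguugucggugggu
mmu-miR-99a-5p: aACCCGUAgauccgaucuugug
mmu-miR-99b-5p: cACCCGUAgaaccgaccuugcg
mmu-miR-15a-5p: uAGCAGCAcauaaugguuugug
mmu-miR-16-5p: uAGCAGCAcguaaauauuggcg

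Facts of the whole series bear on every value below. Array medians ran from 5.58 to 5.71. Over the microRNA clusters the correlation between arrays was 0.954 to 0.969 within the digested group, 0.937 to 0.979 within the undigested group and 0.892 to 0.938 between groups. The 20 endothelial marker genes measured averaged 9.60 to 9.92 in digested and 10.18 to 10.55 in undigested arrays, far above the floor. Of these 20 genes 12 were lowered and 0 raised, with a median difference of -0.47. Choroid plexus markers averaged 10.22 to 10.79 in digested and 8.73 to 9.56 in undigested arrays. Neuron markers averaged 7.89 to 8.19 and 7.51 to 7.91, so that a level above the floor does not single out vessel cells. Of the other markers, 10 of 12 astrocyte, 8 of 10 pericyte, 4 of 8 microglia and 7 of 9 ciliated ependymal genes were lowered, while 9 of 10 choroid plexus, 4 of 12 neuron, 3 of 7 oligodendrocyte and 2 of 10 smooth muscle genes were raised. Centring each array on the endothelial markers adds 0.56 to every difference and puts the median of all clusters at 0.54, so that any difference between 0 and -0.56 turns positive on that scale. Directions below are on the deposited scale, and where a group of members turns positive this is said.

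Upon digestion 79 of the 245 microRNA clusters were lowered and 3 were raised, and 163 did not pass the test (limma, two-sided, adjusted p of 0.05 over all 27664 clusters). The lowered share was 32.2% of the microRNA clusters against 10.2% of all clusters, and the raised share was 1.22% against 11.1%. The fitted fall was 2-fold or more for 22 members, against 1.24% of all clusters, and 12 of the 22 had both group means above the floor. In 73 members every digested array lay below every undigested array, which held for 12.5% of all clusters. The difference was negative in 206 members and positive in 39, with a median of -0.28, against -0.024 over all clusters, and 201 members (82.0%) lay below that overall median. In bulk RNA of this kind, fewer cells or processes of a type and less RNA per cell cannot be told apart.

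**Figure D1:**
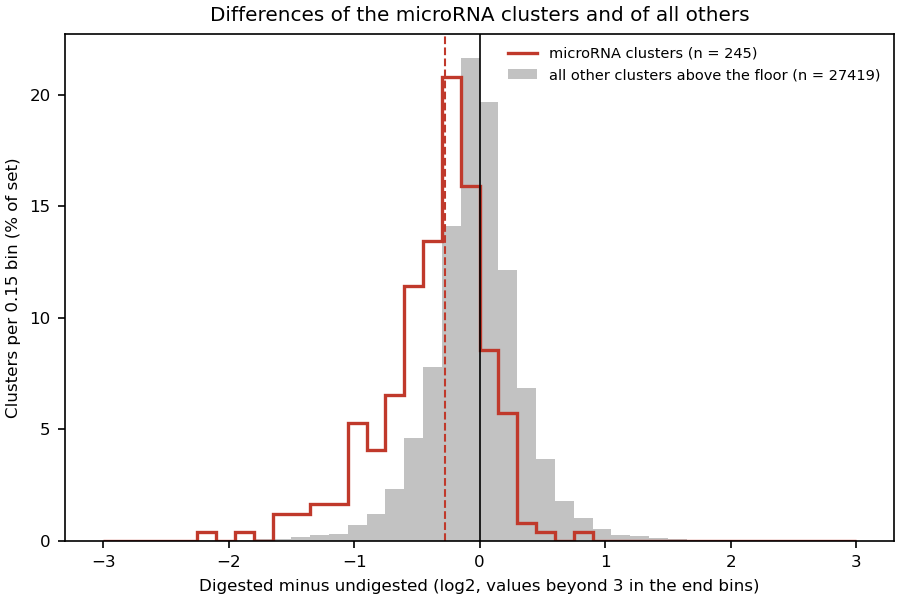
Differences between digested and undigested vessels on the log2 scale (x axis) as a percentage of each set per bin (y axis), for the 245 microRNA clusters (red outline, dashed line at their median of -0.28) and for the 27419 other clusters above the floor (grey). The microRNA outline sits to the left of the grey distribution. Centring on endothelial markers would move both by 0.56 to the right, past 0 for both medians.

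The lowered share of the microRNA clusters exceeded that of all clusters in each band of level. Between the floor and 5.5, 29 of 94 members were lowered (30.9%, against 7.28% of all clusters in that band), between 5.5 and 6.5 it was 28 of 77 (36.4% against 10.4%), and above 6.5 it was 22 of 74 (29.7% against 11.2%). Over the 221 members with both group means above the floor, 64 were lowered (29.0%) against 9.87% of all clusters so chosen. With no filter at all, 107 of the 507 microRNA clusters were lowered and 1 was raised, against 6.31% of all clusters lowered, and 41 of the 107 lay at or below the floor. Small nucleolar RNA clusters, another class of short non-coding RNA, counted 14 lowered and 3 raised of 69, with a median of -0.30, close to that of the microRNA clusters, and this difference in counts was not tested.

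After centring on the endothelial markers, 19 microRNA clusters were lowered and 79 were raised, with a median of 0.28, beside 313 lowered and 18821 raised of all clusters and their median of 0.54. With arrays centred on their medians 60 were lowered and 4 raised, beside 1907 lowered and 4523 raised of all clusters. Centring moves all clusters alike, so that the gap between the medians is fixed while their signs depend on the scale. Without undigested arrays 1 and 2, 33 microRNA clusters were lowered and 1 was raised, beside 1407 lowered and 1008 raised of all clusters.

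The largest falls came from several chromosomes. Mir300, a microRNA gene of the Dlk1-Dio3 region, gave 3.87, 3.94, 4.99 and 4.33 in digested vessels, against 7.0, 6.87, 5.65 and 6.14 in undigested vessels. The groups did not overlap, and 3 of the 4 digested arrays were below the floor. Its difference was -2.13 ± 0.33 (SE, limma adjusted p = 0.00323), and since the digested mean was under the floor only a fall of at least 1.73 on the log2 scale is measured against it.

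Mir3962 gave 3.73, 4.04, 4.95 and 5.01 in digested vessels, against 6.35, 6.11, 6.37 and 6.38 in undigested vessels. Here the undigested arrays lay close together while the digested arrays parted into a lower and a higher pair, still all below the undigested ones. The difference was -1.87 ± 0.27 (limma adjusted p = 0.00241), at least 1.62 below the undigested mean when the floor is put in place of the digested mean. Mir181b-1, one of the genes of the miR-181 family, gave 4.09, 3.29, 4.50 and 3.84 in digested vessels, against 5.60, 5.76, 5.36 and 5.54 in undigested vessels. All digested arrays were below the floor and all undigested arrays above it, a fall of at least 0.88 (fitted -1.64 ± 0.22, limma adjusted p = 0.00188).

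Mir5128, which lies within Strbp, gave 4.27, 4.62, 4.80 and 4.47 in digested vessels, against 6.12, 5.89, 5.53 and 5.90 in undigested vessels. The groups did not overlap (-1.32 ± 0.15, limma adjusted p = 0.00101), and at least 1.18 of the fall is measured above the floor.

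**Figure D2:**
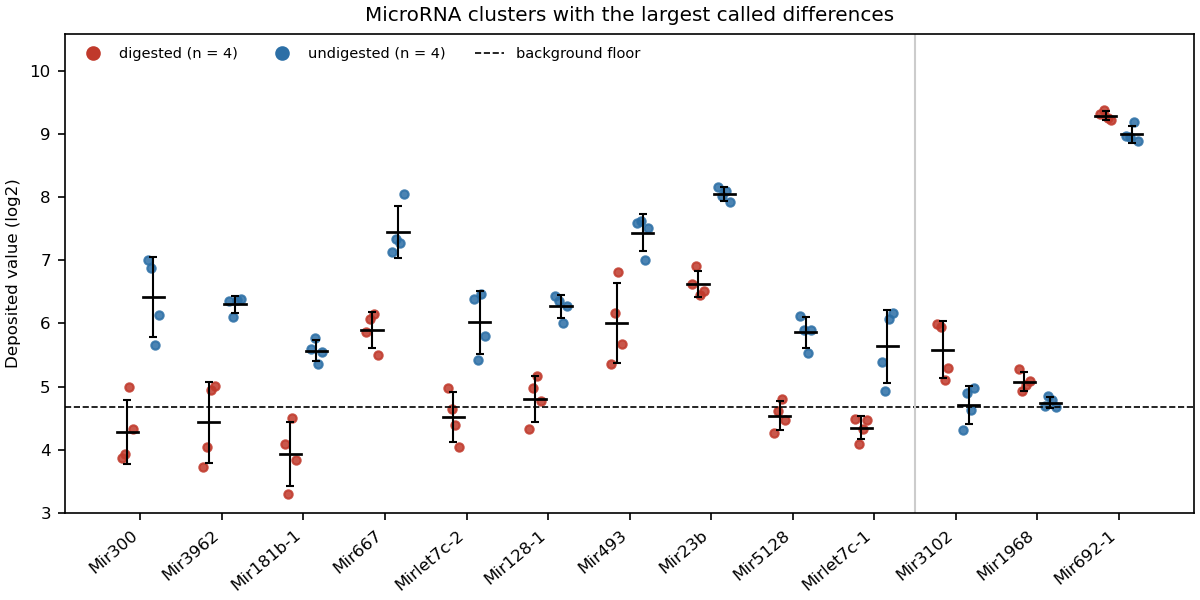
Deposited log2 values (y axis) of the 10 members with the largest falls and the 3 raised members among called clusters without overlap, with digested arrays in red and undigested arrays in blue (points are arrays, n = 4 each, bars are mean ± SD) and the background floor as a dashed line. In the first 10 genes every digested array lies below every undigested one, and in 6 of them the digested mean lies under the floor. Mir3102, Mir1968 and Mir692-1 run the other way by 0.88, 0.33 and 0.29.

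The 3 raised members did not hold in every refit. Mir3102 gave 5.99, 5.95, 5.10 and 5.30 in digested vessels, against 4.31, 4.90, 4.63 and 4.98 in undigested vessels, a difference of 0.88 ± 0.23 (limma adjusted p = 0.0248). Mir1968 differed by 0.33 ± 0.10 (limma adjusted p = 0.0364) and Mir692-1 by 0.29 ± 0.09 (limma adjusted p = 0.0458), and their groups did not overlap. None of them passed in every fit that left out 1 array, and 0 of the 3 passed without digested array 1 or without undigested array 1. Mir3102 lost its call without digested array 1 or 2 or undigested array 1 or 3.

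Among microRNAs linked to endothelial cells, 3 of the 14 symbols listed were measured alone above the floor. All 3 were lowered, beside 32.2% of microRNA clusters and 10.2% of all clusters. Mir23b gave 6.63, 6.91, 6.45 and 6.51 in digested vessels, against 8.16, 8.01, 8.10 and 7.92 in undigested vessels. The arrays of each group lay close together and the groups far apart, a 2.68-fold fall (-1.42 ± 0.11, limma adjusted p = 0.000309). Mir27a, made from the miR-23a/27a/24-2 transcript on chromosome 8, gave 6.42, 6.64, 5.84 and 5.81 in digested vessels, against 7.22, 7.30, 7.25 and 6.96 in undigested vessels (-1.0 ± 0.19, limma adjusted p = 0.00694). Its neighbour Mir23a gave 5.18, 5.27, 4.80 and 5.36 in digested vessels, against 6.24, 6.31, 6.06 and 5.52 in undigested vessels (-0.88 ± 0.18, limma adjusted p = 0.011). None of the groups overlapped, and on the endothelial-centred scale the differences of Mir23b, Mir27a and Mir23a remained negative at -0.86, -0.44 and -0.32. Without undigested arrays 1 and 2 only Mir23b, 1 of the 3, passed. Of the other endothelial symbols 4 lay at or below the floor and 5 were found only in clusters shared with another gene.

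Of the 4 microRNAs of muscle and mesenchyme above the floor 1 was lowered, beside 32.2% of microRNA clusters and 10.2% of all clusters. Mir143 and Mir145a are neighbours on chromosome 18, known to come from a common primary transcript of smooth muscle. Mir143 gave 6.46, 6.28, 6.27 and 6.15 in digested vessels, against 7.50, 7.25, 7.97 and 7.37 in undigested vessels, a 2.35-fold fall without overlap (-1.23 ± 0.15, limma adjusted p = 0.00128). Mir145a gave 7.85, 7.42, 7.05 and 7.41 in digested vessels, against 7.51, 7.41, 8.07 and 7.66 in undigested vessels. Its groups overlapped and it did not pass (-0.23 ± 0.19, limma adjusted p = 0.428), and the difference between the 2 changes was not tested. Mir199a-1 (-0.31) and Mir133b (-0.07) did not pass, and of the 4 only Mir143 was still negative after endothelial centring (-0.67). Beside them, protein-coding smooth muscle markers were raised in 2 and lowered in 1 of 10, against 11.1% raised and 10.2% lowered of all clusters. Their mean ran from 9.39 to 10.14 in digested and from 9.16 to 9.36 in undigested arrays. Pericyte markers ran from 8.66 to 8.92 in digested and from 9.53 to 9.82 in undigested arrays. The part of these cells in the microRNA values was not tested.

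Glial microRNAs were thinly measured. No symbol of the astrocyte list (miR-29 and miR-125b genes) could be followed, since 4 lay at or below the floor and 2 were found only in shared clusters, although astrocyte markers themselves ran from 7.01 to 7.43 in digested and from 8.41 to 8.81 in undigested arrays. The study, with its own annotation and filter, lists Mir29a among the transcripts depleted upon digestion. Of 3 oligodendrocyte members, Mir32 was lowered, with 4.71, 4.91, 4.84 and 4.78 in digested vessels, against 5.50, 5.03, 5.38 and 5.24 in undigested vessels (-0.48 ± 0.11, limma adjusted p = 0.015). That call was lost without undigested arrays 3 and 4, and the difference was 0.08 after endothelial centring. Both genes of miR-219a, which drives oligodendrocyte maturation, stayed within the spread of the arrays, at -0.15 ± 0.09 for Mir219a-1 and 0.03 ± 0.12 for Mir219a-2. Mir142, the only leukocyte microRNA above the floor, differed by -0.05 ± 0.23, and no red blood cell microRNA lay above it. Mir106b, the only gene above the floor of the growth-linked miR-17 to miR-92 clusters and their paralogs, was at -0.29 and did not pass.

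On the deposited scale neuronal microRNAs and neuronal messenger RNAs had opposite signs. All 10 members above the floor had negative differences, as had 206 of the 245 microRNA clusters, and 2 of the 10 were lowered, beside 32.2% of microRNA clusters and 10.2% of all clusters. Of the 10, 8 lay below the median of all clusters, and Mir7b and Mir212 turn positive when arrays are centred on their medians. Of 12 protein-coding neuron markers 11 had positive differences and 4 were raised, beside 11.1% of all clusters raised. After endothelial centring the median of the 10 was 0.24, and the part of neurons in these values was not tested. Mir128-1 gave 4.32, 4.97, 5.16 and 4.76 in digested vessels, against 6.44, 6.36, 6.01 and 6.27 in undigested vessels (-1.46 ± 0.18, limma adjusted p = 0.00116). Mir218-1, known from motor neurons and from its place in the guidance gene Slit2, gave 4.89, 4.62, 4.97 and 4.89 in digested vessels, against 5.57, 6.17, 5.92 and 5.86 in undigested vessels (-1.03 ± 0.13, limma adjusted p = 0.00155). Both fell 2-fold or more without overlap, and both stayed lowered under every alternative that tested them, endothelial centring included. Mir138-2 (-0.91 ± 0.34, limma adjusted p = 0.0882) and Mir128-2 (fitted -0.80 ± 0.30, limma adjusted p = 0.089) did not pass, and the digested mean of Mir128-2 lay under the floor, which leaves 0.54 of its difference measured. Mir9-1 (-0.34), Mir7-1 (-0.30), Mir9-3 (-0.19), Mir124a-2 (-0.16), Mir7b (-0.02) and Mir212 (-0.02) did not pass either.

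**Figure D3:**
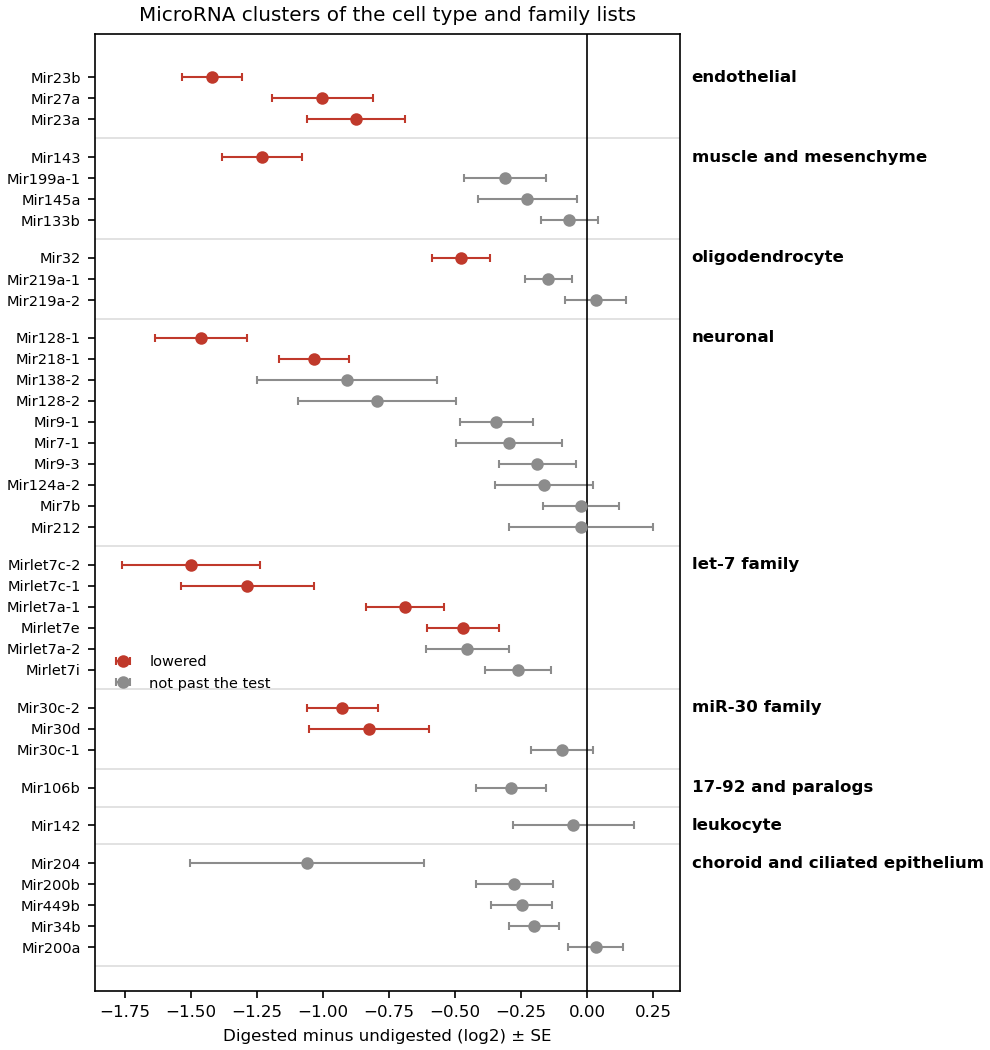
Difference between digested and undigested vessels in log2 units ± SE (x axis) for each member above the floor of the lists of cell type and family microRNAs (y axis, grouped by list), red where lowered and grey where the test was not passed. All differences except those of Mir219a-2 and Mir200a lie below 0, and those between 0 and -0.56 turn positive when arrays are centred on the endothelial markers.

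No call was made among the microRNAs of choroid plexus and ciliated epithelium. None of 5 members was lowered or raised, whereas 9 of 10 choroid plexus markers rose and 7 of 9 ciliated markers fell. Mir204, a microRNA of choroid plexus and retinal pigment epithelium that lies in Trpm3, gave 6.95, 6.37, 7.83 and 8.16 in digested vessels, against 7.91, 7.66, 8.81 and 9.18 in undigested vessels. The arrays of both groups spread over more than a log2 unit, and the difference did not pass (-1.06 ± 0.44, limma adjusted p = 0.12). Among the alternatives it passed only with the replicate number as a block, although the numbers were not taken to pair the arrays. Its host Trpm3 gave 11.60, 11.44, 11.81 and 11.83 in digested vessels, against 10.73, 10.59, 11.42 and 11.41 in undigested vessels, higher in all digested arrays and short of the test (0.63 ± 0.20, limma adjusted p = 0.0526). In both genes arrays 3 and 4 of each group were the high ones, as they were for the choroid plexus markers. These ran 10.48, 10.22, 10.78 and 10.79 in digested and 8.86, 8.73, 9.55 and 9.56 in undigested arrays. Mir449b (-0.25), Mir34b (-0.20), Mir200b (-0.28, of which 0.26 lies above the floor) and Mir200a (0.03) did not pass.

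The let-7 family, which restrains growth and developmental timing genes, was lowered in 4 of the 6 members above the floor (66.7%, against 32.2% of microRNA clusters and 10.2% of all clusters). With both group means above the floor, 2 were lowered (Mirlet7a-1 and Mirlet7e), while Mirlet7a-2 and Mirlet7i did not pass. So chosen, 29.0% of microRNA clusters and 9.87% of all clusters were lowered. Mirlet7c-2 gave 4.98, 4.64, 4.39 and 4.04 in digested vessels, against 6.38, 5.42, 6.46 and 5.79 in undigested vessels (-1.50 ± 0.26, limma adjusted p = 0.00505, at least 1.33 above the floor). Mirlet7c-1, its copy on chromosome 16 with the same mature sequence, gave 4.49, 4.09, 4.33 and 4.48 in digested vessels, against 5.39, 4.93, 6.06 and 6.16 in undigested vessels (-1.29 ± 0.25, limma adjusted p = 0.00818, at least 0.95). All digested arrays of Mirlet7c-1 were under the floor, and in neither gene did the groups overlap. Mirlet7a-1 (-0.69 ± 0.15, limma adjusted p = 0.0116) and Mirlet7e (-0.47 ± 0.14, limma adjusted p = 0.0376) were lowered too, and Mirlet7e lost its call without digested array 1 or 3 or undigested array 1, 2 or 4. Mirlet7a-2 (-0.45) and Mirlet7i (-0.26) did not pass. Mirlet7e, Mirlet7a-2 and Mirlet7i turn positive after endothelial centring, at 0.09, 0.11 and 0.30.

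Calls differed between some genes with the same mature sequence. In the miR-30 family Mir30c-2 gave 4.83, 4.94, 4.80 and 4.69 in digested vessels, against 6.04, 5.80, 5.38 and 5.75 in undigested vessels, a 1.90-fold fall (-0.93 ± 0.13, limma adjusted p = 0.00234). Mir30c-1, whose mature 5p arm is identical, gave 4.65, 4.82, 4.73 and 4.38 in digested vessels, against 4.58, 4.68, 4.95 and 4.76 in undigested vessels, close to the floor in all 8 arrays (-0.10 ± 0.12, of which 0.058 lies above the floor), where a fall as large as that of Mir30c-2 could not be measured. Mir30d was lowered (-0.83 ± 0.23, limma adjusted p = 0.0314), a call that was lost without digested array 1, 2 or 3 or undigested array 1 or 3. In other pairs, named after their values were seen, 1 gene passed as well. Mir194-2 was lowered (-0.93 ± 0.18, limma adjusted p = 0.00834) while Mir194-1 was at 0.14 ± 0.13, and Mir128-1 was lowered while Mir128-2 did not pass. Whether the 2 genes of a pair differed from each other was not tested.

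Over all mature arms 28 seeds were shared by genes with different symbols, 51 symbols in all, and in 2 of these 28 groups every gene was lowered. The lowered shares to set beside the counts below are 32.2% of microRNA clusters and 10.2% of all clusters. With the seed AGCAGCA, Mir15a (-0.73), Mir497 (fitted -0.48, at least 0.27 above the floor) and Mir16-1 (-0.33) were lowered, 3 of 4 genes, and Mir16-2 (-0.25) did not pass. Mir16-1 lost its call in 9 alternatives, and Mir497 lost its call without undigested arrays 1 and 2. With ACCCGUA, Mir100 (-0.94 ± 0.19, limma adjusted p = 0.00983) and Mir99a (-0.89 ± 0.14, limma adjusted p = 0.00318) were lowered and Mir99b was at -0.10. With ACAUUCA, only Mir181b-1 of 4 was lowered, while Mir181c (-0.24), Mir181a-2 (-0.13) and Mir181d (0.03) did not pass. After endothelial centring Mir15a stayed negative (-0.17), whereas Mir497 (0.083), Mir16-1 (0.23), Mir16-2 (0.31), Mir99b (0.46) and the 3 miR-181 genes that did not pass were positive. All of these genes except Mir181b-1 were named after their values were seen.

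The Dlk1-Dio3 region of chromosome 12 held the densest group of falls. This imprinted region, maternally expressed at its non-coding genes, carries one of the largest microRNA arrays of the mouse genome along Meg3, Rian and Mirg, and is best known from neurons, placenta and muscle. Of 47 microRNA clusters there 29 lay above the floor, and 18 of the 29 were lowered and 0 raised (62.1% against the 10.2% of all clusters). With both group means above the floor, 14 of 25 were lowered, 7 of them 2-fold or more, with a median of -0.54 that turns to 0.02 after endothelial centring. Over the 29 the median fitted difference was -0.68, which is -0.12 after endothelial centring. Outside the region 61 of 216 microRNA clusters were lowered (28.2%), still above the 10.2% of all clusters, with a median of -0.25 that is 0.31 after endothelial centring.

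Mir667 gave 5.86, 6.07, 6.14 and 5.50 in digested vessels, against 7.14, 7.34, 7.28 and 8.05 in undigested vessels, a 2.94-fold fall without overlap (-1.56 ± 0.21, limma adjusted p = 0.00185). Mir493, near the Dlk1 end, gave 5.36, 6.17, 6.81 and 5.67 in digested vessels, against 7.59, 7.63, 7.0 and 7.52 in undigested vessels (-1.43 ± 0.29, limma adjusted p = 0.00899). Array 3 of both groups lay close together in Mir493 while the other arrays of the groups stood far apart, and its call was lost without undigested arrays 1 and 2. Mir329 gave 6.69, 6.84, 6.98 and 6.44 in digested vessels, against 8.21, 8.34, 7.42 and 8.10 in undigested vessels (-1.28 ± 0.20, limma adjusted p = 0.0032), again with undigested array 3 lowest in its group. Mir543 gave 5.84, 5.32, 5.60 and 5.43 in digested vessels, against 6.88, 6.88, 6.40 and 6.74 in undigested vessels (-1.18 ± 0.14, limma adjusted p = 0.00128). With Mir300 these are the region's 5 largest changes, and none of their groups overlapped. Of the next falls in size, named after their values were seen, Mir487b (-1.13), Mir382 (-1.04) and Mir376b (-1.02) fell 2-fold or more, while Mir377, Mir380 and Mir496a, with digested means under the floor, fell by at least 0.88, 0.67 and 0.53. The calls of Mir376b and Mir380 were lost in 12 and 10 alternatives, among them fits without digested array 1, 2 or 4 or undigested array 1, 2 or 4.

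**Figure D4:**
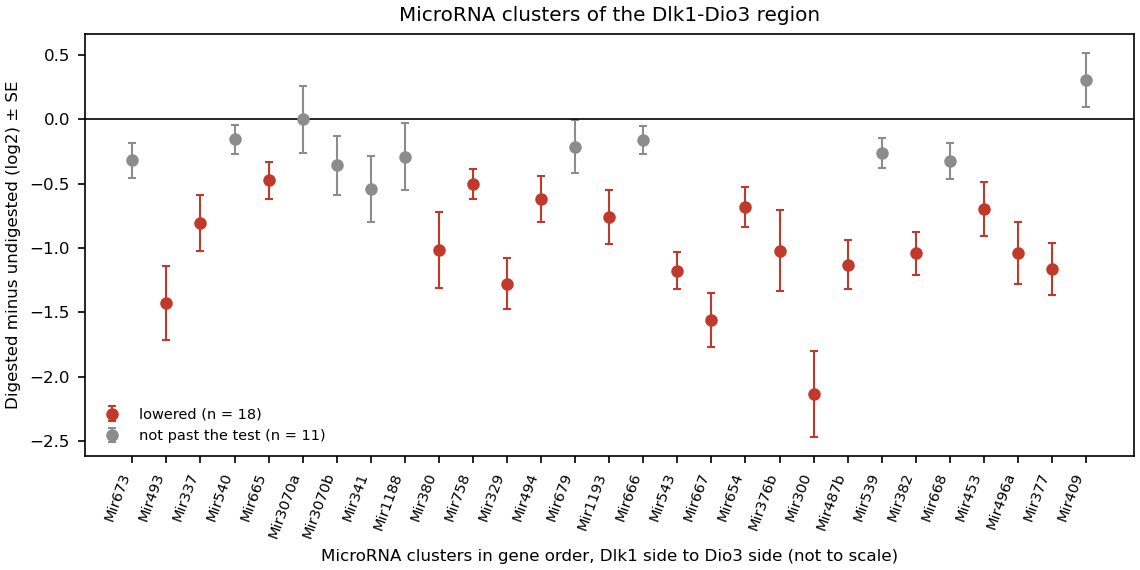
Difference between digested and undigested vessels in log2 units ± SE (y axis) for the 29 microRNA clusters of the Dlk1-Dio3 region above the floor, in gene order from the Dlk1 side to the Dio3 side (x axis, not to scale), red where lowered and grey where the test was not passed. Lowered clusters are spread along the whole order, with Mir300 lowest at -2.13, and only Mir409 (0.30) and Mir3070a (0.00) do not lie below 0. Clusters between 0 and -0.56 turn positive when arrays are centred on the endothelial markers.

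Clusters that did not pass stood between lowered ones along the region. Mir540 (-0.15) and Mir666 (-0.16), named after their values were seen, lay beside the lowered Mir665 (-0.47, a call lost in 11 alternatives, among them fits without digested array 1 or 4 or undigested array 1, 2 or 4) and Mir543, and at the Dio3 end Mir377 (fitted -1.16) was followed by Mir409 (0.30 ± 0.21, limma adjusted p = 0.34), although both lie in Mirg. Of the 4 long RNAs of the region measured above the floor none passed. Meg3 gave 5.75, 6.26, 5.94 and 5.51 in digested vessels, against 6.54, 6.83, 5.96 and 6.15 in undigested vessels (-0.50 ± 0.21, limma adjusted p = 0.125). Rian, which spans many of the region's small RNAs, differed by -0.10 ± 0.19, Dio3os by -0.19 and the paternally expressed Dlk1 by -0.03.

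The size of the fall depended on the arrays set against each other. The mean of the 29 clusters was 5.77, 6.05, 6.23 and 5.80 in digested arrays 1 to 4, against 6.88, 6.95, 6.27 and 6.63 in undigested arrays 1 to 4. Digested array 3 was the highest of its group and undigested array 3 the lowest of its group, so that the 2 nearly met. Between arrays 1 and 2 of both groups the median difference in the region was -0.95 and between arrays 3 and 4 it was -0.35, while over all clusters it was -0.021 and -0.016. Over all microRNA clusters the same medians were -0.39 and -0.21. No label names this split, the numbers were not taken to pair the arrays, and each side rests on 2 arrays per group. In refits of all clusters, 11 of the region's clusters were lowered without undigested array 1, 11 without undigested array 2, 6 without both, and 20 without undigested arrays 3 and 4. In the same refits 2019, 2001, 1407 and 2419 of all clusters were lowered, against 2813 in the full fit, so that calls fell outside the region too. The neuron markers ran the other way among the undigested arrays, at 7.51, 7.57, 7.84 and 7.91, and the astrocyte markers likewise at 8.41, 8.43, 8.81 and 8.79. Smooth muscle, oligodendrocyte, microglia, ciliated ependymal and choroid plexus markers were also lower in undigested arrays 1 and 2. Endothelial markers (10.53, 10.55, 10.31 and 10.18) and pericyte markers (9.75, 9.82, 9.60 and 9.53) were higher in undigested arrays 1 and 2, as the region was. The part of these cells in the difference between arrays was not tested.

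The Sfmbt2 intron on chromosome 2 holds the other large microRNA array of the mouse, a repeated cluster of the miR-297, miR-466, miR-467 and miR-669 families. Of 41 clusters there 22 lay above the floor, with 12 distinct symbols and 17 distinct sets of values, since copies share probes. All 22 had negative differences and 6 were lowered (27.3%, against 28.4% of microRNA clusters outside both regions and 10.2% of all clusters), 5 when each set of values is counted once, with a median of -0.37 that turns to 0.19 after endothelial centring. No member fell 2-fold. Mir466b-2 (-0.74 ± 0.19, limma adjusted p = 0.0233, at least 0.72 above the floor) and Mir467e (-0.66 ± 0.20, limma adjusted p = 0.0466), named after their values were seen, had the largest differences. Mir467e lost its call in 11 alternatives, among them fits without digested array 1 or 4 or undigested array 1, 2 or 4, and Mir466b-2 in 6, among them fits without digested array 3 or undigested array 1 or 4. Mir467c, one of the 5 members with the highest level, did not pass (9.46 ± 0.17 in digested and 9.69 ± 0.19 in undigested vessels, mean ± SD, n = 4). Members of such repeated families cannot be told apart by their values.

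A host gene on the same strand was found for 119 of the 207 members whose strand the tables give, and 103 pairs with 90 hosts had both partners above the floor. The median difference was -0.30 for the microRNA clusters of these pairs and -0.002 for their hosts. In 82 of the 103 pairs the difference of the microRNA cluster lay below that of its host, as 82.0% of all 245 members lay below the median of all clusters. Of the pairs with a lowered microRNA, the host was lowered in 6, raised in 4 and not past the test in 21. Where the microRNA did not pass, the host was lowered in 4, raised in 13 and not past the test in 54. Of all clusters 10.2% were lowered and 11.1% raised. Over the pairs the differences of microRNA and host correlated weakly (Pearson r = 0.19, Spearman rho = 0.14, across genes, several of which share a host).

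Pairs that fell together included Mir15a and Mir16-1 in Dleu2, a long non-coding RNA known as the host of this tumour suppressor microRNA pair. Mir15a gave 7.81, 7.80, 7.77 and 7.87 in digested vessels, against 8.42, 8.74, 8.40 and 8.60 in undigested vessels (-0.73 ± 0.09, limma adjusted p = 0.00152). Mir16-1 gave 5.14, 5.20, 4.99 and 5.26 in digested vessels, against 5.59, 5.45, 5.46 and 5.39 in undigested vessels (-0.33 ± 0.09, limma adjusted p = 0.0275), a call lost in 9 alternatives, among them fits without digested array 1 or 3 or undigested array 1 or 2. It turns positive after endothelial centring. Dleu2 gave 6.05, 6.18, 5.73 and 6.22 in digested vessels, against 7.43, 7.39, 7.35 and 7.28 in undigested vessels (-1.32 ± 0.11, limma adjusted p = 0.000413). Mir511 fell with Mrc1, the mannose receptor gene of perivascular macrophages. Mir511 gave 4.49, 4.25, 4.61 and 4.44 in digested vessels, against 5.48, 4.99, 5.65 and 5.68 in undigested vessels, a fall of at least 0.76 (fitted -1.0 ± 0.16, limma adjusted p = 0.00311), while Mrc1 differed by -1.45 ± 0.26 (limma adjusted p = 0.00547). These pairs and the 4 that follow next were named after their values were seen. Mir5123 in B4galt1, Mir1933 in Ugp2, Mir721 in Cux1 and Mir148b in Copz1 were lowered by 0.36 to 0.85 while their hosts were raised by 0.24 to 0.58, and all of these microRNAs but Mir5123 turn positive after endothelial centring. Mir148b lost its call in 12 alternatives, among them fits without any 1 digested array or without undigested array 1 or 3.

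The hosts of the largest falls did not pass the test. Mir23b lies in Aopep, an aminopeptidase gene, which gave 8.0, 7.86, 7.80 and 7.91 in digested vessels, against 7.67, 7.72, 7.91 and 7.91 in undigested vessels (0.09 ± 0.09, limma adjusted p = 0.509). Mir128-1 lies in R3hdm1, which gave 9.95, 10.40, 10.59 and 10.05 in digested vessels, against 10.43, 10.36, 10.14 and 10.39 in undigested vessels (-0.08 ± 0.15, limma adjusted p = 0.725). Both hosts had overlapping groups while the groups of both microRNA clusters did not overlap. Slit2, the host of Mir218-1, was at 0.45 ± 0.17 (limma adjusted p = 0.0845) and Strbp, that of Mir5128, at -0.04 ± 0.08. The reverse was seen in Htr2c, the serotonin receptor gene of choroid plexus, which was raised (1.21 ± 0.29, limma adjusted p = 0.0188) and holds 4 members of which none passed. Mir1298 (-0.60), Mir1912 (0.28), Mir764 (0.29) and Mir1264 (0.60), named for their host, had overlapping groups.

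**Figure D5:**
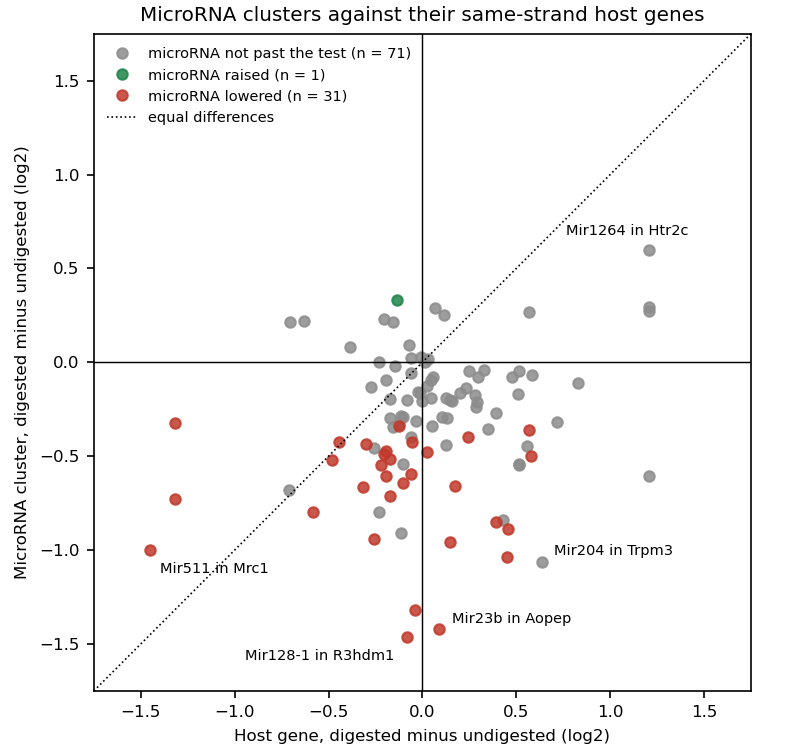
Difference between digested and undigested vessels in log2 units of the microRNA cluster (y axis) against that of its same-strand host gene (x axis) for 103 pairs, coloured by the call of the microRNA cluster, with a dotted line of equal differences. Most points lie below the dotted line, and Mir23b and Mir128-1 lie far below hosts near 0. Centring on the endothelial markers would shift every point by 0.56 up and to the right.

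None of the 5 members with the highest values passed the test. Mir5099 gave 12.23, 12.64, 12.84 and 12.55 in digested vessels, against 12.90, 12.95, 12.84 and 12.90 in undigested vessels, with array 3 of both groups at the same rounded value, and short of the test (-0.33 ± 0.12, limma adjusted p = 0.0833). Mir449b (mean level 11.54), Mir5125 (10.35), Mir1195 (9.68) and Mir467c (9.58) did not pass, with differences of -0.25, -0.16, -0.45 and -0.23, and all 5 turn positive after endothelial centring. Levels of different clusters rest on different probes and were not set against each other. Of the 79 lowered members, 51 were lowered in every fit that left out 1 array and 16 of them under every alternative that tested them, endothelial centring included. Those 16 were Mir300, Mir3962, Mir181b-1, Mir667, Mirlet7c-2, Mir128-1, Mir23b, Mir5128, Mirlet7c-1, Mir329, Mir143, Mir543, Mir218-1, Mir377, Mir382 and Mir1931, the last of them (-0.94 ± 0.09, limma adjusted p = 0.000651) named after its values were seen. Among them Mir300, Mir3962, Mir181b-1, Mirlet7c-2, Mir5128, Mirlet7c-1 and Mir377 had digested means under the floor and passed it through the undigested group alone. The fit that required both group means above the floor did not test these genes.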

How the data were processed

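Values were taken as deposited by the authors, on a log2 scale, 1 per transcript cluster and array. The methods name Expression Console and EASANA with the FAST DB annotation, background correction by antigenomic probes and quantile normalization, and whether the deposited table holds all these steps is not stated. Whether its probes were placed on a given genome build is not given in the sources used here. Clusters with a mean over 8 arrays above the 90th percentile of receptor clusters were kept, and digested minus undigested vessels was tested in limma 3.58.1 (R 4.3.3, lmFit and eBayes, two-sided, Benjamini-Hochberg over all 27664 clusters kept, threshold 0.05). The script was tested on simulated data. Precision is set by having 4 arrays in each group, and scanner intensities were not analysed here. Hosts are genes that span the microRNA on the same strand in the RefSeq table (GRCm38.p6), and sequences come from the same release. Python 3.11.15, pandas 2.3.3, numpy 2.4.6 and matplotlib 3.10.9 were used for summaries and figures.

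Where the digested mean of a named member lay under the floor, the difference with the floor in its place is given beside the fitted one, as at least that size for a called member. The genes named are the 10 largest changes in each direction among called members without overlap of the groups, the 5 highest levels, every member of the microRNA lists, the 5 largest changes in the Dlk1-Dio3 region, the 3 members on each side of the floor and the hosts of these. Members and lists, including marker lists, were chosen with earlier results of these data known. Alternatives were other scalings, other filters on low values, eBayes with trend, array weights, the methods' t-test, the replicate number as a block and fits without 1 or 2 arrays.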

Additional observations from a re-analysis of the deposited data

Results flagged for a closer look

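For 104 group samples of named members, a group of 4 arrays was searched for an array that stood apart from the other 3. Chance flags about 1 in 20 such groups, and 6 were found. Mir3962 was at 6.11 in undigested array 2 while the other undigested arrays lay at 6.35 to 6.38. Mir124a-2 was at 5.28 in digested array 4 (others 5.50 to 5.55) and Mir199a-1 at 4.99 in digested array 1 (others 5.26 to 5.32). Mir5125 was at 10.55 in undigested array 2 (others 10.38 to 10.41), Mir219a-1 at 5.58 in undigested array 4 (others 5.45 to 5.46) and Mir34b at 5.65 in undigested array 3 (others 5.86 to 5.87). Of these 6 only Mir3962 was lowered, and its call held without that array.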

How the results depend on the processing

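The 79 lowered and 3 raised microRNA clusters became 19 and 79 when arrays were centred on the endothelial markers, with 313 lowered and 18821 raised of all clusters, a median microRNA difference of 0.28 and 8 lowered Dlk1-Dio3 clusters. With arrays centred on their medians the microRNA median was -0.19 (60 lowered, 4 raised), and 1907 clusters were lowered and 4523 raised of all, against 2813 and 3059. A stricter filter tested 77 microRNA clusters and left 25 lowered, 1 raised and 6 lowered in Dlk1-Dio3. With no filter 66 of the 79 were kept and 1 was raised. The methods' unpaired t-test, called here at an adjusted p of 0.05 without a fold cut, gave 55 lowered and 0 raised, with 9 in Dlk1-Dio3. The study itself called genes at an uncorrected p with a 2-fold cut, so these are not its counts. At an unadjusted limma p under 0.05, 5 members were higher. Without undigested arrays 1 and 2, a choice that no label names, 33 were lowered and 1 raised, 6 in Dlk1-Dio3, with 1407 lowered and 1008 raised of all clusters. Without undigested arrays 3 and 4 the microRNA median was -0.35. The causes of these shifts were not tested.

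Fits without 1 array gave 57 to 80 lowered and 0 to 2 raised microRNA clusters, a median of -0.33 to -0.24, 11 to 19 lowered in Dlk1-Dio3, and 2001 to 2736 lowered and 2028 to 2874 raised of all clusters. Deviations of arrays with the same number correlated at 0.060, 0.183, -0.044 and 0.178, so the numbers were not taken to pair the arrays. The undigested array correlating best with digested arrays 1, 2, 3 and 4 was array 1, 2, 4 and 3. Choroid plexus markers were higher in arrays 3 and 4 of both groups (10.48, 10.22, 10.78 and 10.79 digested, 8.86, 8.73, 9.55 and 9.56 undigested). Neuron markers were not so in digested arrays (7.89, 8.19, 8.19 and 7.93). A step between arrays 1 and 2 and arrays 3 and 4 was not fitted. With the replicate number as a block 72 microRNA clusters were lowered and 1 raised, 62 of the 79 were kept, 11 passed in Dlk1-Dio3, and Mir204 gained a call (-1.06, limma adjusted p = 0.00234, against 0.12 without the block and 0.073 to 0.536 in its other alternatives).

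Of the named members these changed sign. Centring on medians gave Mir133b 0.019, Mir212 0.066, Mir142 0.035 and Mir7b 0.064, and a further quantile normalization gave 0.0091, 0.0083, 0.032 and 0.065 for the same 4. Endothelial centring gave Mir133b 0.49, Mirlet7i 0.30, Mir212 0.54, Mir142 0.51, Mir5099 0.23, Mir449b 0.31, Mir7-1 0.26, Mirlet7e 0.089, Mir5125 0.40, Mir7b 0.54, Mir219a-1 0.41, Mir1195 0.11, Mir145a 0.33, Mir467c 0.33, Mir124a-2 0.40, Mir9-1 0.22, Mir32 0.082, Mir30c-1 0.46, Mir200b 0.28, Mir106b 0.27, Mir9-3 0.37, Mirlet7a-2 0.11, Mir199a-1 0.25 and Mir34b 0.36. Without undigested arrays 1 and 2 the values were Mir212 0.46, Mir142 0.25, Mir7b 0.042 and Mir124a-2 0.17, and without arrays 3 and 4 Mir219a-2 -0.083 and Mir30c-1 0.016. Fits without 1 array ran from -0.14 to 0.0035 for Mir133b, -0.26 to 0.16 for Mir212, -0.29 to 0.055 for Mir142, -0.13 to 0.043 for Mir7b, -0.056 to 0.12 for Mir219a-2, -0.30 to 0.011 for Mir124a-2 and -0.041 to 0.084 for Mir200a. None of these 7 passed on the deposited scale.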
